A study of Rattus norvegicus with 32 samples.

Results

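Keratins other than Krt8 and Krt18, together with the keratin-associated proteins, were followed across 16 cultures of rat epithelial cells. The members were all probe sets whose annotation names exactly 1 gene and whose symbol begins with Krt and a number, or with Krtap, leaving out Krt8 and Krt18. The rule gave 50 genes, measured by 54 probe sets, out of 14511 genes, measured by 15316 probe sets with exactly 1 gene symbol. The deposited table held 29215 probe sets in all. No measured value entered the rule. A pair of keratin probe sets that name several genes fell outside it, one shared by Krt5 and Krt75 and one shared by Krt31, Krt33b and Krt33a, so the basal keratin Krt5 has no level of its own here.

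The series asked how thymic epithelial cells and hair follicle cells differ before and after transplantation. All donors were Sprague-Dawley rats carrying an enhanced green fluorescent protein transgene, named act-EGFP in the strain label. Every culture was grown on irradiated 3T3-J2 mouse fibroblasts, and transplanted cells were recovered from skin grafts on nude mice and cultured again. Signals come from Affymetrix arrays, with 2 arrays for each culture averaged before any comparison. The 12 thymic cultures comprised 4 before grafting (PRE16cl11_VII, PRP1cl11_VII, PRP4mo_bulk and PRP4mo_Cl09), 4 after a first transplantation (Clone_217, Clone_218, Clone_57 and Clone_907) and 4 after a second (Clone_287, Clone_347, Clone_194 and Clone_354). They came from donors at embryonic day 16 (5 cultures), postnatal day 1 (3) and 4 months (4). The 4 follicle cultures comprised 2 before grafting (YR219P5_Bulk_V and YR219P5cl7) and 2 after a first transplantation (YR219P5_RC and Clone_54), all labelled P5. The labels do not say whether P5 means a postnatal day or a passage, and no thymic culture carries it, so tissue cannot be told apart from whichever it names. In all, 11 cultures were clonal and 5 were bulk. The labels do not say whether cultures of a group came from separate animals, so p-values measure only the spread between these cultures.

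Keratins are the intermediate filament proteins of epithelia, and each filament pairs a type I with a type II chain. Stratified epithelia keep Krt14 with Krt5 in the basal layer, switch to Krt10 with Krt1 in the suprabasal layers of epidermis, and use Krt13 with Krt4 in many mucosae, while the thymic medulla also holds keratinised, stratified-like cells. The inner root sheath and the hair shaft have keratins of their own, and keratin-associated proteins form the matrix around the shaft filaments.

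Levels are log2 signals, so 1 unit is a doubling, and they are set against each other only within a probe set. The 32 arrays had medians from 5.287 to 5.554, except array 1 of YR219P5_RC, which stood apart at 5.782. Among the genes that mark thymic epithelium, Ccl25 lay at 3.25 to 3.73 and Psmb11 at 3.93 to 4.52 in every culture, around or under 4, the level below which a signal was not taken as above background. Foxn1, a regulator of both thymic and hair epithelium, lay at 5.48 to 6.02 in thymic and 5.13 to 6.15 in follicle cultures. Pax9 separated the tissues, at 6.81 to 9.54 in thymic and 6.21 to 6.43 in follicle cultures. Pax1 and Prss16 did not. Pax1 lay at 5.71 to 7.48 in ungrafted thymic, 4.99 to 5.55 in grafted thymic and 5.28 to 5.59 in follicle cultures. Prss16 lay at 5.22 to 5.67 in thymic and 5.1 to 5.66 in follicle cultures. Marker genes of fibroblasts and feeder cells (11 of 11 measured), summed on the linear scale, ran from 680 to 3439 in thymic and from 2018 to 4861 in follicle cultures, and their part in the results was not tested. Strong signals weigh most in such a sum. Vim ranged most, from 6.85 to 11.81, followed by S100a4, from 6.85 to 9.53, and then Thy1, Twist1 and Col3a1. Col1a1, Col1a2, Pdgfra, Pdgfrb, Dcn and Lum each stayed within 1 log2 unit. The melanocyte (4 of 6) and haematopoietic (5 of 6) marker lists summed to 67 to 101 and 62 to 78, with Tyr at 2.89 to 3.52 and Ptprc at 3.16 to 3.88. Sox10, on the melanocyte list, lay at 5.23 to 5.89, and Cd8a, on the haematopoietic list, at 4.02 to 4.48. The other measured members of both lists were under 4 in every culture. In RNA from whole cultures, fewer cells of a type and less RNA per cell cannot be told apart.

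The widest-ranging members were all keratins of surface or internal epithelia, though others of these, such as Krt14, Krt9 and Krt76, stayed within 1 log2 unit. A range of 2 or more log2 units between the highest and the lowest culture was reached by 10 of the 54 members, or 18.5%, against 7.67% of all probe sets. These 10 were Krt15 of the basal layer, Krt1, Krt10 and Krt80 of cornifying epithelium, Krt13, Krt4 and Krt12 of mucosa and cornea, Krt16 of wounds, and Krt19 and Krt7 of simple epithelium. The limit of 2 was chosen after the values were seen, and fell in a gap between Krt80, with a range of 2.60, and Krt23, with 1.59. Of the 54 members 40 (74.1%) stayed within 1 log2 unit, close to the 68.5% of all probe sets that did. In the heat map of all members the wide-ranging rows are all in the upper part, above the follicle-specific keratins.

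**Figure D1:**
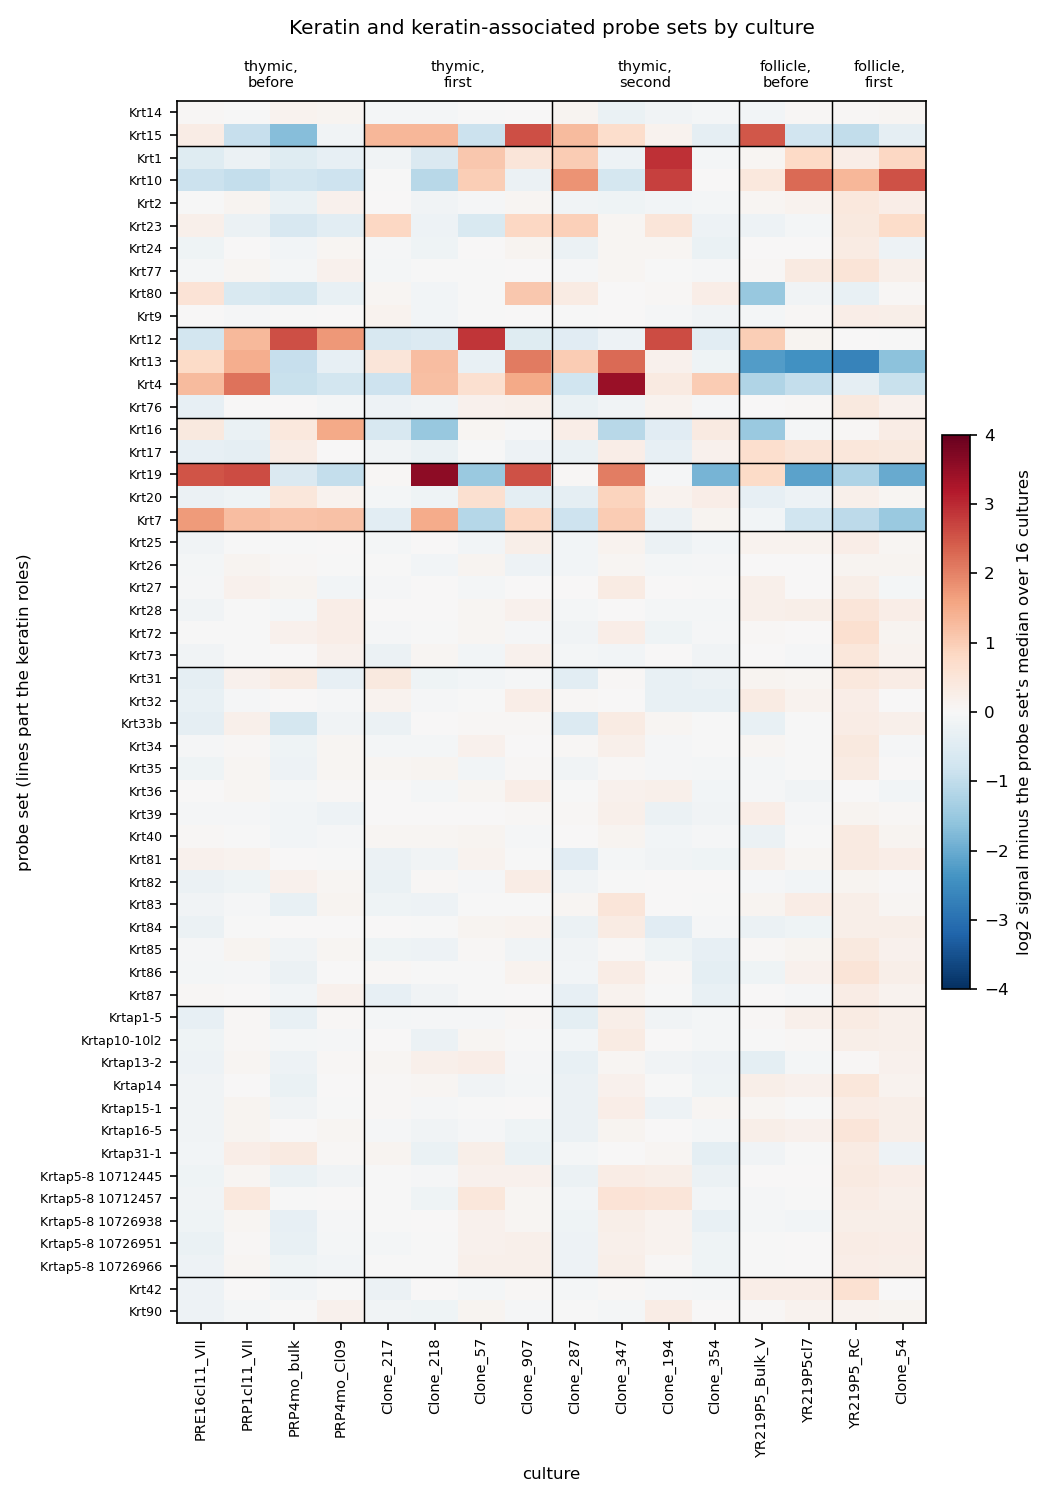
Log2 signal of each of the 54 probe sets in each of the 16 cultures, as the difference from that probe set's median over the cultures (red above, blue below, scale from -4 to 4), with lines between the keratin roles and between the 5 groups of cultures. The strongly coloured rows are among the 10 keratins with a range of 2 or more, while the 33 inner root sheath, hair shaft and keratin-associated rows stay pale.

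The basal keratins comprised 2 measured members that behaved differently. Krt14, the type I chain of basal keratinocytes, lay between 12.95 and 13.35 in all 16 cultures, with a median of 13.21, near the highest value in the whole table of 14.03. It was 13.19 ± 0.11 (SD, n = 12) in thymic and 13.22 ± 0.09 (SD, n = 4) in follicle cultures. Whether signals this near the top of the scale hide differences in RNA was not tested. Krt15, a basal keratin also used as a marker of the follicle bulge, ranged over 4.29 log2 units, or 19.6-fold.

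Krt15 was 10.09, 8.87, 8.10 and 9.67 in the ungrafted thymic cultures in the order listed above, 11.13, 11.13, 8.96 and 12.39 after the first transplantation, and 11.06, 10.51, 9.94 and 9.43 after the second. The follicle cultures had 12.28 and 9.05 before grafting and 8.81 and 9.45 after it. High and low cultures thus occurred in both tissues: the highest were thymic Clone_907 and follicle YR219P5_Bulk_V at 12.39 and 12.28. Both are bulk cultures, and so is the lowest, PRP4mo_bulk. The median difference between the arrays of a culture was 0.13 for this probe set.

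Among the suprabasal and cornifying keratins, 3 of 8 ranged widely. Krt10, the type I chain of the suprabasal epidermis, was low in the ungrafted thymic cultures, at 4.86, 4.79, 4.99 and 4.91. It was 5.73, 4.62, 6.71 and 5.51 after a first and 7.54, 5.03, 8.46 and 5.74 after a second transplantation. Follicle cultures had 6.15 and 7.99 before and 7.06 and 8.28 after grafting. The ungrafted thymic cultures were tightly grouped and overlapped with neither follicle group, whereas the grafted thymic cultures spread from below them to above every follicle culture.

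Krt1, the partner of Krt10 in the same layer, showed a similar order. It lay at 3.89, 4.15, 3.90 and 4.04 in ungrafted thymic cultures, around the level not taken as above background, and reached 7.30 in Clone_194, the culture that was also highest for Krt10. The next highest, Clone_57 at 5.46 and Clone_287 at 5.38, were thymic too, and the 4 follicle cultures lay between 4.45 and 5.20. The 3 thymic cultures with the highest Krt1 were thus the same 3 as those with the highest Krt10.

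Krt80, a type II keratin of differentiating epithelia, ran from 6.20 in YR219P5_Bulk_V to 8.80 in Clone_907 and was between 7.03 and 8.27 in all other cultures. Krt23 lay from 4.00 to 5.58. The other members of this list, Krt2, Krt9, Krt24 and Krt77, each stayed within 1 log2 unit, and Krt2 had a mean level under 4.

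In the RefSeq gene order, Krt28, Krt10 and Krt12 are consecutive protein-coding genes on chromosome 10, yet their ranges here were 0.63, 3.83 and 3.59 log2 units. The 100 bases before the annotated start of each are shown because these neighbours differ so much in spread. They are RefSeq sequences of build GRCr8 from the minus strand, printed 5′ to 3′, and capitals mark the letters TATAAA.
Krt28, chr10:84824858-84824957: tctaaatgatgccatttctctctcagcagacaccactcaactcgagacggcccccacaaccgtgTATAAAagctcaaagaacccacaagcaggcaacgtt
Krt10, chr10:84839161-84839260: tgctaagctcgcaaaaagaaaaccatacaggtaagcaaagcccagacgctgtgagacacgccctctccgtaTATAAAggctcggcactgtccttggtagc
Krt12, chr10:84874266-84874365: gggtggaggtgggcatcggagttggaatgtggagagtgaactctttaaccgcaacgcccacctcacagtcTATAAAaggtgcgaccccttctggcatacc
All 3 hold the letters, beginning 36, 29 and 30 bases before the start. The wide-ranging Krt4 and the narrow Krt85 do not hold them in the same 100 bases. Over the 38 member genes with a RefSeq promoter, 24 (63.2%) held TATAAA on either strand within 250 bases before the start, against 12.9% of 33469 promoters of that length. The AP-1 letters TGACTCA, searched on both strands in the same window, occurred in 1 of the 38 (2.63%) and in 4.05% of all. Keratin genes arose by duplication, so their promoters are not independent, and a match of letters is not a measured binding site.

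The mucosal and corneal keratins held the member that separated the tissues most clearly. Krt13, the type I keratin of non-cornifying mucosa, was 9.93, 10.63, 8.27 and 8.85 in ungrafted thymic cultures, 9.67, 10.41, 8.87 and 11.27 after the first and 10.21, 11.44, 9.36 and 9.0 after the second transplantation. In follicle cultures it was 6.93 and 6.75 before and 6.51 and 7.53 after grafting. Every thymic culture was above every follicle culture, with 8.27 as the lowest thymic and 7.53 as the highest follicle level.

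Krt4, the type II partner of Krt13, did not share this separation. It ranged from 4.64 to 8.97 among thymic cultures with a median of 6.35, and from 4.32 to 5.17 in follicle cultures, so 4 thymic cultures (PRP4mo_bulk, Clone_217, Clone_287 and PRP4mo_Cl09, at 4.64, 4.70, 4.71 and 4.77) lay within the follicle values. The highest level of both keratins was in Clone_347, at 8.97 for Krt4 and 11.44 for Krt13.

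Krt12, the type I keratin of corneal epithelium, divided the cultures in another way. The 3 cultures from postnatal day 1 donors, PRP1cl11_VII, Clone_57 and Clone_194, had 7.29, 8.83 and 8.60, and the 5 cultures from embryonic day 16 donors lay between 5.25 and 5.77. Of the cultures from 4-month-old donors, the ungrafted PRP4mo_bulk and PRP4mo_Cl09 had 8.56 and 7.70, and the grafted Clone_907 and Clone_354 had 5.50 and 5.55. The follicle cultures lay from 5.97 to 6.96. Postnatal day 1 and embryonic day 16 cultures thus did not overlap, a split noticed in the values and not tested. Krt76, a keratin of hard palate, stayed between 3.71 and 4.42.

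The keratins of wounded epidermis and the outer root sheath were measured by 2 probe sets. Krt16, induced in wounded and hyperproliferative epidermis, was 10.50, 9.83, 10.53 and 11.62 in ungrafted thymic cultures, 9.48, 8.58, 10.20 and 10.06 after the first and 10.38, 8.99, 9.66 and 10.47 after the second transplantation. Follicle cultures had 8.61 and 10.04 before and 10.16 and 10.41 after grafting. The highest culture was ungrafted PRP4mo_Cl09, and the groups overlapped.

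Krt17, a keratin of the outer root sheath and of activated keratinocytes, ran from 11.97 to 12.65 in ungrafted thymic cultures, with a median of 12.19, and was 12.21, 12.07, 12.31 and 12.15 after the first and 12.08, 12.59, 12.01 and 12.50 after the second transplantation. The follicle cultures YR219P5cl7, YR219P5_RC and Clone_54 had 12.85, 12.80 and 12.72, and YR219P5_Bulk_V was higher than these. All follicle cultures were above all thymic cultures, with 12.65 as the highest thymic and 12.72 as the lowest follicle level. The arrays of a culture differed by a median of 0.03 for this probe set. Krt14, Krt16 and Krt17 are close relatives, and the part of cross-hybridisation between their probes was not tested.

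The simple epithelial keratins included the member with the widest range of all. Krt19, found in simple epithelia and in the follicle bulge, was 10.15, 10.25, 7.07 and 6.70 in ungrafted thymic cultures, 7.69, 11.21, 6.17 and 10.20 after the first and 7.68, 9.69, 7.60 and 5.79 after the second transplantation. Follicle cultures had 8.41 and 5.49 before and 6.41 and 5.61 after grafting. The range of 5.73 log2 units is 53.0-fold, and the arrays of a culture differed by a median of 0.18. Thymic cultures occupied the 5 highest places and follicle cultures both of the lowest, with overlap between.

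Krt7, a type II keratin of simple and ductal epithelium, was tightly grouped in ungrafted thymic cultures, at 10.71, 10.24, 10.17 and 10.19. It was 8.60, 10.51, 7.87 and 9.83 after the first and 8.20, 10.04, 8.78 and 9.11 after the second transplantation. Follicle cultures had 8.92 and 8.22 before and 7.96 and 7.52 after grafting. Every ungrafted thymic culture was above every follicle culture and every twice-grafted culture, and the once-grafted cultures spanned both. Clone_218 and Clone_347, the grafted cultures with the highest Krt7, also had the highest Krt19 of their groups, at 11.21 and 9.69. Krt20, a keratin of intestine and urothelium, lay between 4.74 and 6.04. Beside these values, the simple epithelium marker list of Krt8, Krt18, Epcam and Cldn4 (7 probe sets) was summed on the linear scale. The sums were 9201 to 12310 in ungrafted thymic cultures, 4426 to 11006 after the first and 4969 to 8873 after the second transplantation. Follicle cultures had 781 to 4143 before and 4221 to 5080 after grafting. Strong signals weigh most in these sums, and Cldn4 and Epcam were lowest in YR219P5_Bulk_V, at 8.31 and 7.64. The part of this list in the levels of Krt7, Krt13 and Krt19 was not tested.

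**Figure D2:**
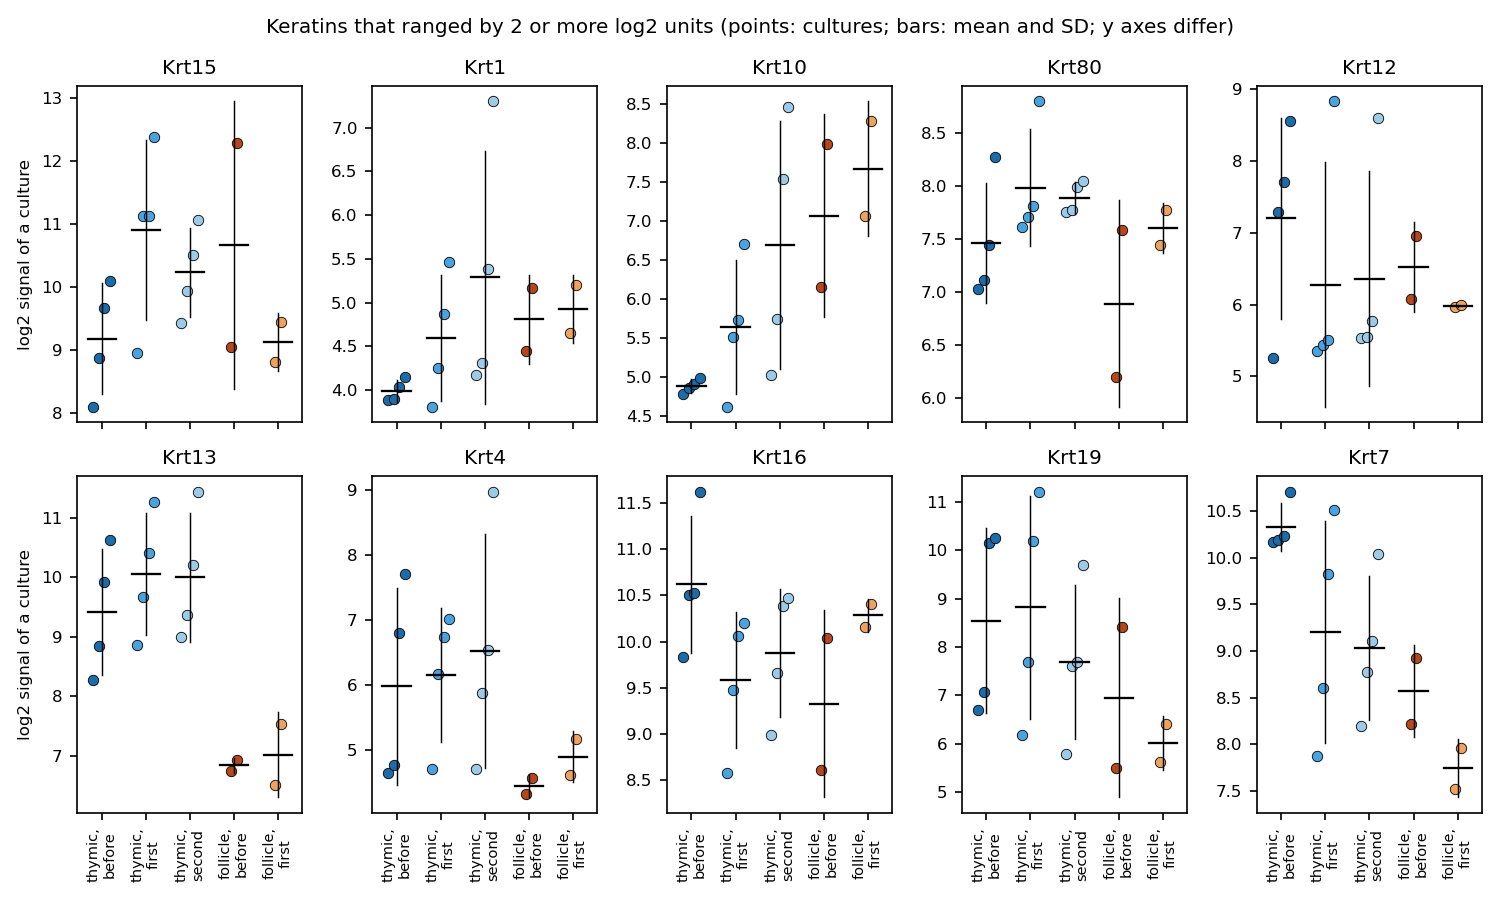
Log2 signal of each culture for the 10 keratins with a range of 2 or more, in the 5 groups; points are cultures, horizontal bars group means, vertical bars 1 SD, and each panel has its own y axis. Krt13 in the 4 follicle cultures, at 6.51 to 7.53, lies below all 12 thymic cultures, and Krt7 and Krt10 are tightly grouped in ungrafted thymic cultures (10.17 to 10.71 and 4.79 to 4.99).

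The members of the hair follicle proper were 6 keratins of the inner root sheath, 15 of the hair shaft and 12 probe sets (8 genes) of keratin-associated proteins. Across the 16 cultures these 33 probe sets had a median range of 0.64 log2 units, with ranges from 0.32 for Krt26 to 1.04 for Krt33b, and 0 of the 33 reached a range of 2. All 1-symbol probe sets had a median range of 0.75. The arrays of a culture differed by a median of 0.21 for these members and 0.13 for all probe sets, so they combined a narrower range with a larger difference between arrays than probe sets in general. The mean level was 4 or more for 29 of the 33, and 3 (Krt26, Krt32 and Krtap13-2) were under 4 in every culture.

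The marker members of these sets show how narrow the ranges were. Krt28 and Krt73, of the inner root sheath, lay at 4.93 to 5.33 and 4.45 to 4.86 in thymic and at 5.26 to 5.55 and 4.62 to 5.12 in follicle cultures. Krt81 and Krt85, of the hair cortex, lay at 5.25 to 5.88 and 6.62 to 7.05 in thymic and at 5.78 to 6.08 and 6.99 to 7.34 in follicle cultures. For all 4 the highest culture was YR219P5_RC, and the tissues overlapped. These 4 genes stand in the fixed list of hair and stratified keratins with Krt14 and Krt17, but the values give no culture in which hair shaft or inner root sheath keratins stood far above the others.

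Other hair members by the same measure were the cortex keratins Krt31 (4.65 to 5.49), Krt83 (5.45 to 6.23) and Krt87 (6.21 to 6.82), and the inner root sheath keratins Krt27 (4.20 to 4.65) and Krt72 (up to 4.84). Krt81, Krt83 and Krt86 are close relatives whose probes may share signal, which was not tested. The 5 probe sets of Krtap5-8, a cysteine-rich matrix protein, target 1 gene and are not independent. These 5 had ranges of 0.49 to 0.72, and Krtap31-1 had a range of 0.78. The keratins without a placed role, Krt42 and Krt90, ranged over 0.84 and 0.47.

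**Figure D3:**
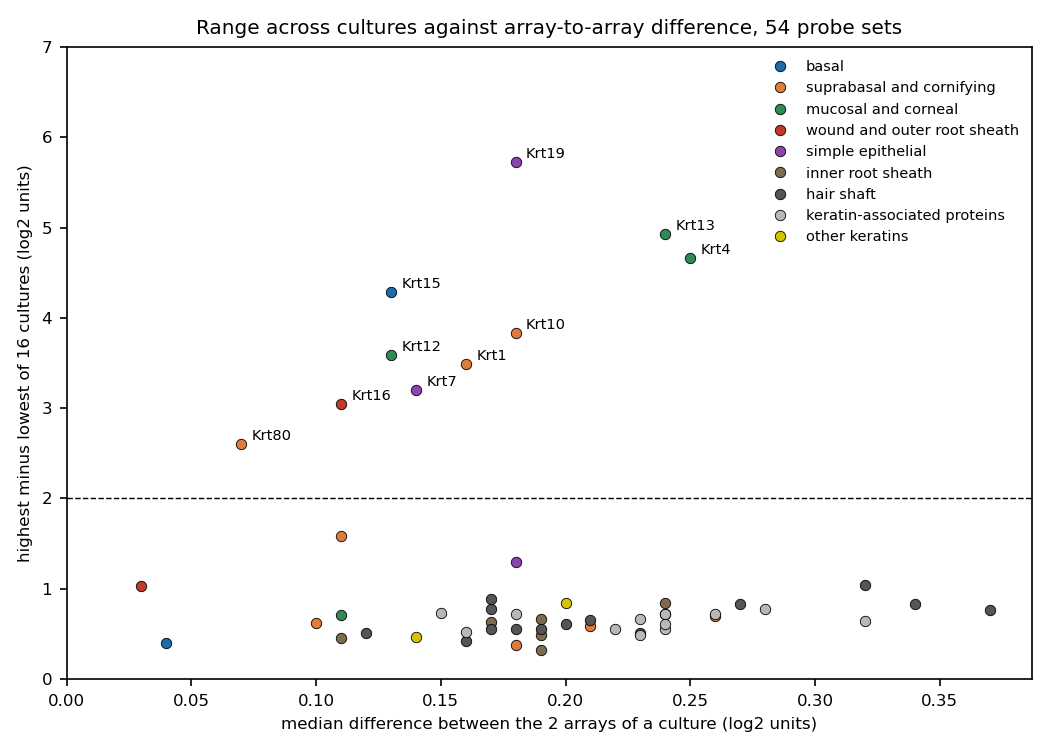
Range of each of the 54 probe sets across the 16 cultures (y axis, log2 units, dashed line at 2) against the median difference between the 2 arrays of a culture (x axis, log2 units), coloured by role. The 10 named keratins have ranges from 2.60 to 5.73, and the inner root sheath, hair shaft and keratin-associated probe sets lie at ranges of 0.32 to 1.04.

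The culture YR219P5_RC was the highest of the 16 for 26 of the 54 members (48.1%) and for 30.8% of all probe sets. When its array 1, the one with the high median, was left out, 6 members (11.1%) were highest there, against 14.6% of all. With every array centred on its own median, 11 members (20.4%) were, against 8.75% of all. The median deviation of the 33 hair members from their median over cultures was 0.31 in this culture, against 0.17 for all probe sets. Without array 1 these values were 0.11 and 0.03. In thymic Clone_347 the hair members deviated by 0.18 and all probe sets by 0.04, and in follicle Clone_54 by 0.17 and 0.00. The next lower values of the hair members were 0.06 in PRP1cl11_VII and Clone_57.

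Before grafting, the largest differences between follicle and thymic cultures were in Krt13, Krt10 and Krt7, but 0 of 54 members passed the test, against 1.55% of all probe sets (limma, Benjamini-Hochberg adjusted p under 0.05). At an unadjusted p under 0.05 there were 8 members, or 14.8%, against 13.5% of all. The log2 difference of follicle minus thymic was -2.58 ± 0.76 (SE, limma adjusted p = 0.124) for Krt13 and 2.18 ± 0.82 (adjusted p = 0.242) for Krt10. It was -1.76 ± 0.60 (adjusted p = 0.193) for Krt7 and 0.68 ± 0.19 for Krt17, which had the smallest adjusted p of 0.113. The culture values of these 4 did not overlap between the groups of 4 and 2, and the share of all probe sets without overlap is not given here. When single arrays entered with culture as a random block, 5 members passed (Krt10, Krt13, Krt16, Krt17 and Krt7), with p-values that can be too small. The share of all probe sets passing under this setting is not given, here or for the comparisons below. The share of 1.55% belongs to the main fit. With a fit of only the 6 cultures compared, Krt7 passed (adjusted p = 0.0358).

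After a first transplantation the thymic cultures differed most from the ungrafted ones in Krt15, at 1.72 ± 0.75 log2 units (SE, limma adjusted p = 0.303). Krt7 followed at -1.12 ± 0.49 (adjusted p = 0.305) and Krt16 at -1.04 ± 0.46 (adjusted p = 0.312), and all 3 groups of values overlapped. Of the 54 members 0 passed, against 0.516% of all probe sets, and 3 (5.56%, against 14.8% of all) had an unadjusted p under 0.05. The random block of arrays gave these same 3 as passing.

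After a second transplantation 0 of 54 members passed against the ungrafted thymic cultures, where 3.86% of all probe sets did. At an unadjusted p under 0.05 there were 4 members (7.41%, against 19.6% of all), namely Krt10, Krt1, Krt7 and Krt81. The differences were 1.80 ± 0.67 (SE, limma adjusted p = 0.146) for Krt10 and 1.30 ± 0.55 (adjusted p = 0.209) for Krt1. They were -1.29 ± 0.49 (adjusted p = 0.156) for Krt7 and -0.29 ± 0.10 for the cortex keratin Krt81, which had the smallest adjusted p of 0.136. Culture values of these 4 did not overlap between the groups, though the gap was narrow for Krt10 and Krt1. The lowest twice-grafted and highest ungrafted levels were 5.03 and 4.99 for Krt10, and 4.17 and 4.15 for Krt1. The arrays of a culture differed by a median of 0.18 and 0.16 for these probe sets. The share of all probe sets without overlap is not given here. With the random block 3 passed, namely Krt10, Krt1 and Krt7. Both grafted groups were compared with the same 4 ungrafted cultures and so share them.

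Between the second and the first thymic transplantation 0 of 54 members passed, as did 0% of all probe sets, and 1 member (1.85%, against 3.47% of all) had an unadjusted p under 0.05. In follicle cultures, 0 of 54 members passed after against before grafting, again beside 0% of all probe sets, and 5 (9.26%, against 8.84% of all) had an unadjusted p under 0.05, with Krt40 lowest (0.36 ± 0.11 log2 units, limma adjusted p = 0.562). The random block gave 0 members in both. The 33 hair members had a median difference of 0.21 between grafted and ungrafted follicle cultures, with 29 of 33 positive, and all probe sets had one of 0.10. The grafted follicle group contains YR219P5_RC, whose own hair members deviated by 0.31, or 0.11 without array 1, as given above.

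Grafted follicle cultures were also set against grafted thymic cultures, with the same 2 follicle cultures in both comparisons. They include YR219P5_RC, whose array 1 had the high median, and its part in the counts at an unadjusted p was not tested. The 54 members had median differences of 0.2 against once-grafted and 0.26 against twice-grafted cultures, and all probe sets 0.11 in both. Against once-grafted thymic cultures 0 of 54 members passed, beside 0.0718% of all probe sets, and 16 members (29.6%, against 17.0% of all) had an unadjusted p under 0.05. Krt13 differed by -3.03 ± 0.76 (SE, limma adjusted p = 0.168) and Krt17 by 0.57 ± 0.19 (adjusted p = 0.213). Against twice-grafted cultures 0 of 54 passed, beside 0.0457% of all, and 20 (37.0%, against 21.0% of all) had an unadjusted p under 0.05. Krt13 differed there by -2.98 ± 0.76 (adjusted p = 0.115), Krt17 by 0.46 ± 0.19 (adjusted p = 0.202) and Krt81 by 0.53 ± 0.13 (adjusted p = 0.107). With the random block 2 members (Krt13 and Krt17) passed in the first and 1 (Krt13) in the second.

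The change after a first transplantation was compared between tissues as a difference of differences. Of the 54 members 0 passed, beside 0% of all probe sets, and 2 (3.70%, against 5.65% of all) had an unadjusted p under 0.05. These were Krt15, at -3.26 ± 1.30 log2 units, and Krt16, at 2.0 ± 0.80 (SE, limma adjusted p = 0.827 for both), and the random block gave 0. Among thymic cultures, 4-month-old against embryonic day 16 donors gave 0 of 54 members, beside 0.0914% of all, with 3 (5.56%, against 11.1% of all) at an unadjusted p under 0.05. These were Krt76 at 0.28 ± 0.07 (limma adjusted p = 0.215), Krt82 and Krt16, and the random block gave 0.

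All 4 follicle cultures were then compared with all 12 thymic cultures in the same fit, a comparison added after the values were seen, which shares its cultures with those above. Here 6 of 54 members passed (11.1%), against 5.09% of all probe sets, 1 lower and 5 higher in follicle cultures. Krt13 was lower in follicle cultures by 2.89 ± 0.51 log2 units (difference -2.89, 95% interval -3.99 to -1.80, limma adjusted p = 0.0112), or 7.43-fold. Krt17 was higher by 0.60 ± 0.13 (0.32 to 0.88, adjusted p = 0.0228), or 1.51-fold. These are the same separations without overlap that the culture values above show.

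The other members that passed differed by less. The keratin-associated protein Krtap16-5, at 6.07 ± 0.12 in thymic and 6.39 ± 0.14 in follicle cultures (SD, n = 12 and 4), differed by 0.32 (limma adjusted p = 0.0317) without overlap. The gap was narrow, with 6.23 as the highest thymic and 6.27 as the lowest follicle level. The arrays of a culture differed by a median of 0.15 for this probe set. The inner root sheath keratin Krt28 differed by 0.29 (adjusted p = 0.0402), Krt42 by 0.35 (adjusted p = 0.0445) and the type II keratin Krt77 by 0.28 (adjusted p = 0.0493), each with overlap. All 4 were highest in YR219P5_RC. With arrays centred on their medians 4 members passed, namely Krt13, Krt17, Krtap16-5 and Krt7, and without array 1 of YR219P5_RC there were 3. The random block gave 5, and clonal cultures alone gave 0. For these settings the shares of all probe sets passing are not given, so their counts cannot be set against a background.

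The count of 6 rests on few cultures. It was 0 without YR219P5_RC, where 84 of all probe sets passed in place of 779, 1 without YR219P5_Bulk_V (123 of all), 2 without YR219P5cl7 (640) or Clone_354 (498), and 3 without PRE16cl11_VII, PRP1cl11_VII, Clone_217 or Clone_218 (477 to 575). It was 8 without Clone_57 (1061 of all) and 10 without Clone_347 (1084), so the count over all probe sets was low or high with these cultures too. The member count stayed at 6 without Clone_287 (1007 of all) or Clone_54 (503), so the counts did not always move together. Krt13 kept its direction in all of these, at -3.15 to -2.64 over all alternatives, and missed the threshold without YR219P5_RC (adjusted p = 0.0841) and with clonal cultures alone (adjusted p = 0.209). Krt17 kept its direction at 0.51 to 0.64 and missed the threshold without YR219P5_RC (0.116), YR219P5_Bulk_V (0.101) and Clone_54 (0.0525), and with clonal cultures alone. Krtap16-5, Krt28, Krt42 and Krt77 kept their direction and missed the threshold under 7, 14, 15 and 20 of 23 alternatives.

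**Figure D4:**
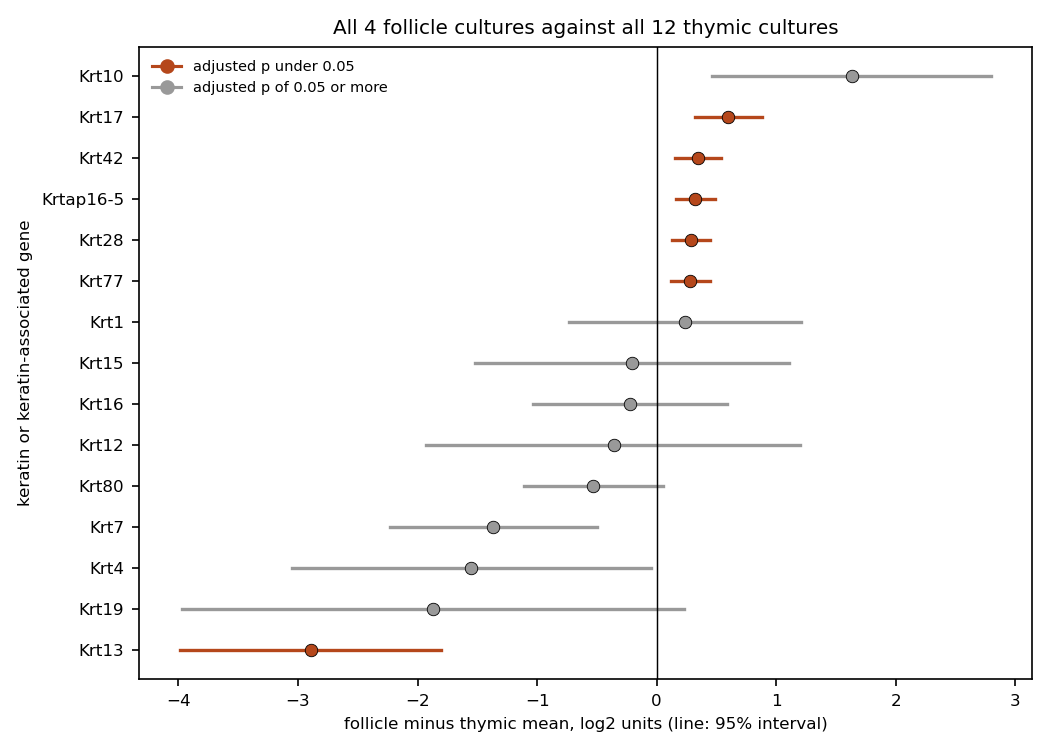
Log2 difference of the mean of 4 follicle cultures minus the mean of 12 thymic cultures, with the 95% interval as a line, for the 10 wide-ranging keratins and the members with an adjusted p under 0.05 (coloured). Krt13 lies at -2.89 and the other coloured members between 0.28 and 0.60, while Krt10, Krt7, Krt4 and Krt19 differ by 1.37 to 1.87 in size with adjusted p-values of 0.0659 to 0.247.

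Of the 10 wide-ranging keratins 9 missed the threshold in this comparison. Krt19 was at -1.87 (95% interval -3.97 to 0.23), Krt10 at 1.63 (0.46 to 2.80), Krt4 at -1.55 (-3.05 to -0.05) and Krt7 at -1.37 (-2.23 to -0.50). Krt80 was at -0.53 (-1.11 to 0.05), Krt12 at -0.36 (-1.93 to 1.2), Krt1 at 0.24 (-0.73 to 1.21) and Krt16 at -0.22 (-1.03 to 0.59). Krt15 was at -0.21 with an interval from -1.52 to 1.11, and the narrow Krt14 at 0.04 with one from -0.11 to 0.18. By role, the 33 hair members had a median difference of 0.16 log2 units, with 29 of 33 positive, and 2 of them passed. All 54 members had a median of 0.14 and all probe sets 0.06.

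Genes that work with the keratins were counted from lists that were chosen with earlier results of these data known. Such a count set beside the share of all probe sets is therefore not an independent test. Of 12 measured regulators of hair keratin genes (14 listed), Gata3 was the 1 that passed between follicle and thymic cultures before grafting, higher by 2.06 ± 0.45 log2 units (SE, limma adjusted p = 0.0395), in a comparison where 1.55% of all probe sets passed. After the second transplantation, where 3.86% of all probe sets passed, 4 of the 12 rose against ungrafted thymic cultures: Gata3 by 1.82 ± 0.36 (adjusted p = 0.0187), Vdr by 1.66 ± 0.30 (adjusted p = 0.0124), Foxq1 by 1.69 ± 0.43 (adjusted p = 0.0454) and Prdm1 by 0.84 ± 0.20 (adjusted p = 0.0335). Gata3 and Vdr, the vitamin D receptor, are needed for normal hair growth. Markers of other cell types moved in the same comparison: the fibroblast markers S100a4 and Twist1 (2 of 11), the thymic marker Pax1 (1 of 6) and 1 of 7 simple epithelium probe sets, for Krt8, were lower, and the sebaceous marker Scd (1 of 5) was higher. The fibroblast and feeder list summed to 1914 to 3439 in ungrafted and 680 to 2070 in twice-grafted thymic cultures, and its part in these changes was not tested. In the same comparison 0 of the 33 hair keratin and keratin-associated probe sets passed, and their median difference was 0.02. Over all follicle against all thymic cultures, where 5.09% of all probe sets passed, the homeobox gene Msx2 was higher by 1.15 ± 0.24 (adjusted p = 0.0199) and Cux1 lower in follicle cultures (-0.50 ± 0.13, adjusted p = 0.0445). Runx1 lay at 9.24 to 10.38 in all cultures.

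Of 10 measured partners of the hair fibre and inner root sheath (14 listed), 0 passed in the fixed comparisons, and Selenbp1 passed in follicle against thymic cultures as a whole (0.27 ± 0.07, limma adjusted p = 0.0395). In that last comparison 5.09% of all probe sets passed. The cross-linking enzyme Tgm1 lay at 6.86 to 10.95 and the aminopeptidase Lap3 at 9.51 to 11.08, while Dsg4, a desmosomal cadherin of the hair shaft, lay at 4.29 to 4.84 and Tgm3 at 3.68 to 4.22. Of 12 measured linkers of keratin to desmosomes and hemidesmosomes (16 listed), Pkp2 was lower in follicle than thymic cultures before grafting (-1.51 ± 0.32, adjusted p = 0.0355). Of all probe sets 1.55% passed there. Pkp1 rose by 0.56 ± 0.14 after the second transplantation (adjusted p = 0.0450), where 3.86% of all probe sets passed. Ppl and Pkp2 were lower over all follicle cultures (-0.80 ± 0.20 and -0.80 ± 0.21, adjusted p = 0.0401 and 0.0465). Itga6 lay at 11.01 to 11.97 and Dsc3 at 10.40 to 11.98. Of 8 measured regulators of stratified epithelium (10 listed, 10 probe sets), Klf4, a factor of the suprabasal epidermis, rose with both probe sets after the second transplantation, by 0.98 ± 0.18 and 0.76 ± 0.19 (adjusted p = 0.0143 and 0.0415). Tp63, the regulator of the basal layer, lay at 9.02 to 10.10 in all cultures. Krt10 and Krt1, given above, missed the threshold in that comparison.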

How the data were processed

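The authors deposited 1 table of log2 values, summarised per probe set with RMA; the submitters' processing notes name Affymetrix Expression Console as the program. Version, background setting and annotation release are not given in the sources used here. Of 29215 probe sets, 15316 had exactly 1 gene symbol, 317 had several and 13582 had none. All 50 member genes matched RefSeq by Entrez number, and 38 had a promoter there.

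Both arrays of a culture were averaged. The 16 culture means were fitted with limma 3.58.1 in R 4.3.3 (lmFit, eBayes), with 1 coefficient per group, and p-values were adjusted by Benjamini-Hochberg over the 15316 probe sets within each comparison, with 0.05 as the threshold. No level filter was applied. Errors are limma standard errors (SE) for differences and standard deviations (SD) between cultures for levels. The number of cultures limits the precision, and arrays have no count depth. In data simulated for the twice-grafted against ungrafted thymic comparison on 15316 probe sets with 200 changed, the fit recovered 165, 196 and 200 at log2 changes of 1, 2 and 4. It also passed 11, 10 and 14 unchanged ones. The changed probe sets were a random draw from all, whose median SD over cultures was 0.21, against 1.27 for the wide-ranging members. Recovery was not simulated for such members or for the follicle groups of 2 cultures.

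Members and lists were chosen with earlier results of these data known. Named members were those past the threshold, the 6 marker genes, and in each role the 3 with the highest mean and the 2 with the largest SD. Names outside that rule were chosen after their values were seen. Of the partner lists, those past the threshold and examples of high mean are named. The comparison of all follicle with all thymic cultures, the range of 2, the array centring counts for YR219P5_RC and the fit without its array 1 were added after seeing the values, as was the level of 4, which follows earlier work on these data. Alternatives were median centring, arrays with culture as a random block, fits of only the cultures compared, an intensity trend in the variance prior, only probe sets with a mean of 4 or more, donor stage as a covariate, clonal cultures only, and leaving out each culture.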

Additional observations from a re-analysis of the deposited data

Results flagged for a closer look

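Among the 33 named probe sets, 99 groups of 4 thymic cultures were examined for a culture that stood far from the other 3 (Dixon's test). The test picks out about 5% of groups by chance, but some of these probe sets were named for a large SD over the same cultures. That rate therefore need not hold here, and the groups found numbered 6. Krt12 gave 2 of them: Clone_57 at 8.83 after the first transplantation, where the others lay at 5.35, 5.43 and 5.50, and Clone_194 at 8.60 after the second, where the others lay at 5.53, 5.55 and 5.77. Both cultures come from postnatal day 1 donors, and each is the 1 such culture in its group. Krt80 was 8.80 in Clone_907, above 7.61, 7.71 and 7.81 in the other once-grafted cultures. Krt7 was 10.71 in the ungrafted PRE16cl11_VII, above 10.17, 10.19 and 10.24. The inner root sheath keratin Krt27 was 4.65 in Clone_347, above 4.31, 4.32 and 4.34 in the other twice-grafted cultures. The hair shaft keratin Krt33b was 5.47 in Clone_217, below 5.71, 5.74 and 5.75 in the other once-grafted cultures. The arrays of a culture differed by a median of 0.11 for Krt27 and 0.32 for Krt33b.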

How the results depend on the processing

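No paired analysis was possible because the numbers in the labels mark the arrays of one culture, which were averaged, and no label pairs cultures across groups. Donor stage recurs across the thymic groups without naming the same animal. As a covariate it left 0 members in each of the other comparisons it was run for and gave 7 instead of 6 for all follicle against all thymic cultures. In each of the 9 comparisons other than all follicle against all thymic cultures, 0 members passed when each culture was left out in turn (lowest and highest count 0) and without array 1 of YR219P5_RC. Arrays with culture as a random block gave 5 members before grafting (follicle against thymic), 3 after the first and 3 after the second thymic transplantation, 2 for grafted follicle against once-grafted and 1 against twice-grafted thymic cultures. The fit of only the cultures compared gave 1 before grafting. The shares of all probe sets passing under these settings, or with donor stage as a covariate, are not given. For all follicle against all thymic cultures the count of 6 ran from 0 to 10 when a culture was left out and was 0 with clonal cultures alone. A level of 5 in place of 4 left 32 of 54 members, instead of 49. Members highest in YR219P5_RC numbered 26, then 11 after median centring and 6 without its array 1. The count of 10 wide-ranging members was 10 under both. Of the 28 member differences recomputed under the alternatives, 0 changed direction. These 28 are a part of all member differences, and most alternatives left out 1 culture and kept the rest, so directions had little room to change. The cause of these shifts was not tested. A fit with fewer cultures has fewer degrees of freedom, and arrays of a culture are not independent, but the part of either was not tested. Levels near or under 4 limit what can be said of the weakest members.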
